A study of Mus musculus with 24 samples.

Results

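The miR-148 and miR-152 family was followed in the liver and the serum of mice on a diet that produces steatohepatitis. Members were taken by name, as 4 mature mouse miRNAs (mmu-miR-148a-3p, mmu-miR-148a-5p, mmu-miR-148b-3p and mmu-miR-152-3p, written below without the species prefix) of the 1881 on the array, and all of their 10 probes of 4415 were read on all 24 arrays. Male C57BL/6NJcl mice, bought at 5 weeks of age and acclimatized for 1 week, received either of 2 diets. The NASH group (non-alcoholic steatohepatitis) was given CDAHFD, a choline-deficient high-fat diet with 0.1% methionine, and the control group the solid chow CE-2, which differs from it in more than choline and fat. Liver and serum from heart blood were collected after 1, 2 or 6 weeks, at 7, 8 or 12 weeks of age, and each combination of tissue, diet and week had 2 arrays. Whether both arrays of a group represent separate mice is not stated in the labels, so p-values cover only the spread between arrays, part of which may be technical.

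MicroRNAs are short RNAs that guide Argonaute proteins to messenger RNAs, mostly through their seed, the bases near the 5′ end, and lower the output of those messengers. Members of a seed family can therefore bind many of the same targets. miR-148a-3p is abundant in hepatocytes, and in mice it is known to repress the LDL receptor and the cholesterol exporter ABCA1. miR-148b-3p and miR-152-3p carry the same seed and are more widely expressed, and all of them have been linked to the maintenance DNA methyltransferase DNMT1 in human cells. miR-148a-5p is cut from the other arm of the miR-148a hairpin.

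RefSeq (GRCm38.p6) held a sequence for 4 of the 4 members. They are shown because the 3p members are so alike that their separate behaviour has to be read against their sequences. Each is given 5′ to 3′, with the seed (bases 2 to 8) in capitals.
miR-148a-3p: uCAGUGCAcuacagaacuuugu
miR-148b-3p: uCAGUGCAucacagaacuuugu
miR-152-3p: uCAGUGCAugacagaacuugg
miR-148a-5p: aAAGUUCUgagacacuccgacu

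The 3p members shared the seed CAGUGCA, and no other mature miRNA of the RefSeq table had it. Counted from the 5′ end, miR-148a-3p and miR-148b-3p were identical at 20 of 22 bases and differed by C9U and U10C. miR-148a-3p and miR-152-3p matched at 18 of 21 compared bases and differed by C9U, U10G and U20G. miR-148b-3p and miR-152-3p differed by C10G and U20G. The probe sequences were not used here, and whether the probes of one member also bind another was not tested.

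The family came from 3 separate loci. Mir148a lay on the minus strand at chr6:51269812-51269910, inside the span of the gene Gm38821. Mir148b lay on the plus strand at chr15:103285125-103285221, inside the span of Copz1, and Mir152 on the plus strand at chr11:96850393-96850465, inside the span of Copz2. Copz1 and Copz2 encode the zeta subunits of the COPI vesicle coat. The Mir148a hairpin is shown with both mature arms in capitals, the 5p arm first, because one arm was bright and the other was at background on the same arrays.
Mir148a hairpin: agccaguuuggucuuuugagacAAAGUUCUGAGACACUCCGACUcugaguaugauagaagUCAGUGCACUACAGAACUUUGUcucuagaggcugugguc

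Values are scanner intensities of the brightest probe of each miRNA, divided by the 75th percentile of the same array over the probes that cleared background throughout the 12 arrays of that tissue, and called relative signal below. Liver arrays each detected 253 to 379 miRNAs and serum arrays 235 to 399. NASH arrays detected more miRNAs, on average 354.5 against 288.8 on control arrays in liver and 347.7 against 295.8 in serum (exact permutation p = 0.00926 in each, the smallest this design allows). Their scaling percentile was also higher, by 0.43 on the log2 scale in liver and 0.78 in serum, so that a relative signal says how a miRNA stood among the brighter ones of its array. Both diets of a week shared a slide, which makes each weekly difference a within-slide value. NASH arrays occupied slide columns 2 and 4 and control arrays columns 1 and 3, so that slide column and diet cannot be told apart.

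The tissue labels were checked against cell type markers. Hepatocyte miRNAs made up a summed relative signal of 64.7 to 122 on NASH liver arrays and 160 to 184 on control liver arrays, with miR-122-5p, the dominant miRNA of hepatocytes, among them. In serum the same sum was 18.8 to 31.7 in NASH and 1.01 to 4.43 in control arrays, and miR-802-5p was at the floor on all 12. Each tissue had its own scale and floor, so the sums of liver and serum can be compared only roughly. The red cell markers miR-451a and miR-486a-5p were present in both tissues.

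In liver, miR-148a-3p was the member that fell on the NASH diet. Its relative signal at week 1 was 4.49 and 4.53 on the NASH arrays, against 5.17 and 5.90 on the control arrays. At week 2 it was 3.09 and 3.66 in NASH livers, against 5.55 and 6.15 in control livers. At week 6 it was 2.02 and 2.94 in NASH livers, against 4.15 and 5.36 in control livers. Both NASH arrays lay below both control arrays in each of the 3 weeks, although the NASH values of week 1 overlapped the lowest control value of week 6.

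Averaged over the weeks, miR-148a-3p reached 0.624 of its control level (log2 difference -0.68, SE 0.12, 95% interval -0.97 to -0.39, limma adjusted p = 0.0040). It was below the control mean of its week in 6 of 6 NASH arrays. Of the 388 liver miRNAs tested, 42.3% passed the threshold of 0.05 in the mean over weeks and 20.4% passed as lower, so that a fall was common in these livers. The difference was -0.29 at week 1 (limma adjusted p = 0.55), -0.80 at week 2 (limma adjusted p = 0.028) and -0.95 at week 6 (limma adjusted p = 0.015), where 11.6%, 30.7% and 28.4% of the miRNAs passed. The 45 miRNAs behind the week 1 share were 16, 24, 28 or 22 without replicate 1 or 2 of the week 1 NASH livers or replicate 1 or 2 of the week 1 control livers. The test of unequal diet effects in the 3 weeks did not pass (limma adjusted p = 0.40), and 3.35% of miRNAs passed it. In bulk liver, fewer cells of a type and less of the miRNA per cell cannot be told apart.

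The size of the fall depended on how the arrays were put on one scale. Without scaling the difference was -0.25 (limma adjusted p = 0.53), while the median difference of the miRNAs detected on all liver arrays stood at 0.30 there. Scaling over all probes gave -0.66 (limma adjusted p = 0.093), and quantile normalization gave -0.19 (limma adjusted p = 0.064). The direction stayed the same under these settings. The calls at weeks 2 and 6 were also lost without scaling (-0.50 and -0.47, limma adjusted p = 0.60 at both weeks), with scaling over all probes (-1.14 and -0.74, limma adjusted p = 0.12 and 0.35) and with no filter on detection (limma adjusted p = 0.18 and 0.10), and the week 2 value was -0.055 with quantile normalization (limma adjusted p = 0.74). The other probe of miR-148a-3p, well above background on all 12 liver arrays, gave -0.68 (limma adjusted p = 0.0067).

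miR-148b-3p did not pass in liver. At week 1 its relative signal was 0.121 and 0.126 on NASH arrays, against 0.116 and 0.138 on control arrays. At week 2 it was 0.130 and 0.147 in NASH livers, against 0.133 and 0.149 in control livers, and at week 6 it was 0.107 and 0.124 in NASH livers, against 0.111 and 0.134 in control livers. The diets overlapped in each week. The mean difference was -0.05, with a 95% interval of -0.24 to 0.14 (limma adjusted p = 0.72), and it turned to 0.38 without scaling (limma adjusted p = 0.28).

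miR-152-3p lay between these 2 members in liver. Its relative signal was 0.295 and 0.250 in NASH livers at week 1, against 0.237 and 0.296 in control livers, and the diets overlapped. At week 2 it was 0.142 and 0.225 in NASH livers, against 0.266 and 0.279 in control livers. At week 6 it was 0.116 and 0.197 in NASH livers, against 0.229 and 0.260 in control livers. Both NASH arrays were thus below both control arrays at weeks 2 and 6. The mean difference was -0.42, with a 95% interval of -0.85 to 0.0054, and missed the threshold (limma adjusted p = 0.10). The normexp background correction, quantile normalization and total signal per miRNA gave -0.36, -0.35 and -0.48, which passed (limma adjusted p = 0.016, 0.017 and 0.028), while the value without scaling was 0.0072 (limma adjusted p = 1). Leaving out replicate 2 of the NASH livers at week 6 gave -0.55, which also passed (limma adjusted p = 0.031).

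miR-148a-5p, the other arm of the miR-148a hairpin, was at background. None of its 4 probes was well above background on any of the 24 arrays, and the brightest gave intensities of 1.43 to 9.41 on NASH liver arrays and 2.71 to 8.60 on control liver arrays. The scanner software nevertheless flagged it as detected on 2 liver arrays, 1 of each diet. No diet comparison could be made for it, and it was not among the 426 miRNAs tested in serum. The 5p arms of miR-148b and miR-152 were also on the array and were detected on 0 of 24 arrays each.

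**Figure D1:**
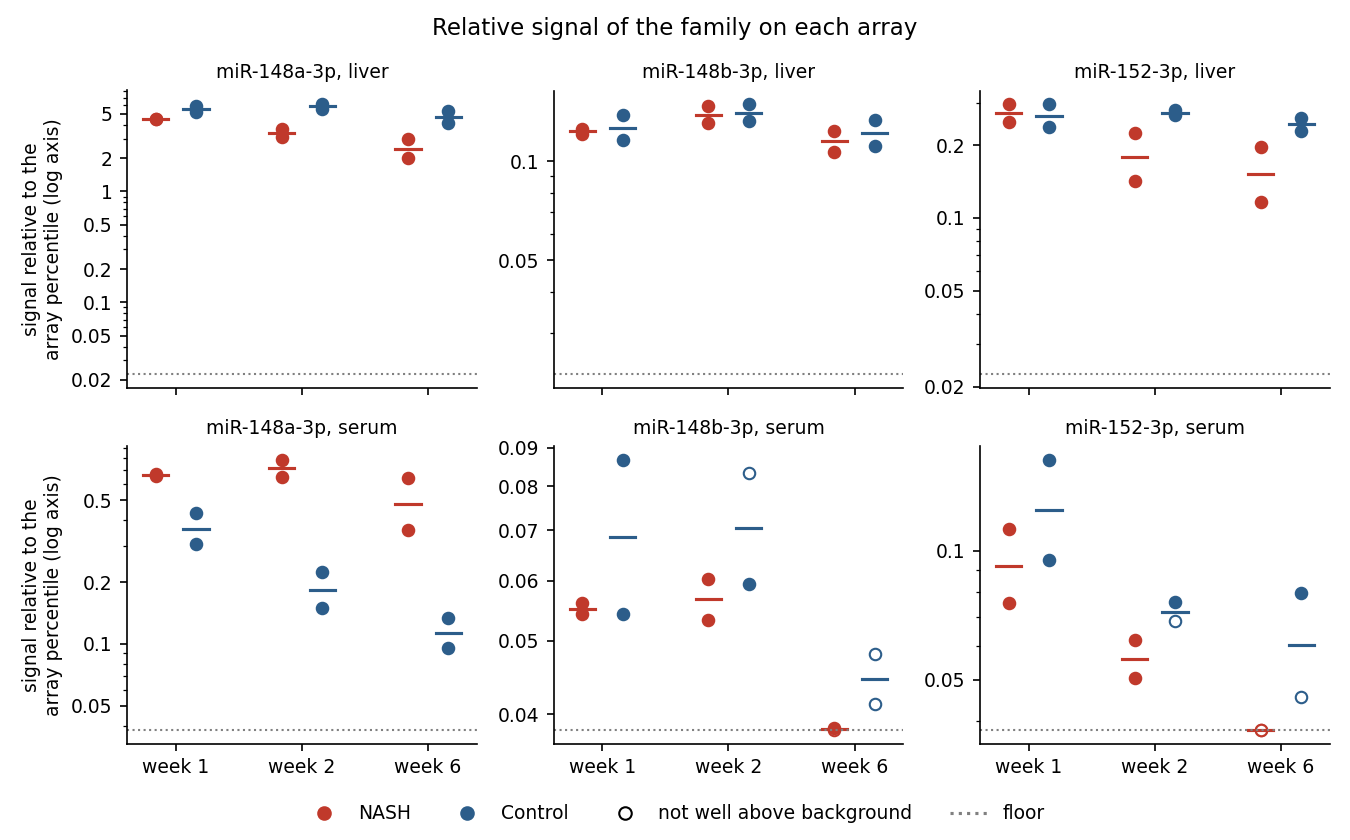
Relative signal (log axis, scale set per panel) of miR-148a-3p, miR-148b-3p and miR-152-3p on every array, by week, in liver (top) and serum (bottom), NASH in red and control in blue. Points are arrays, bars are geometric means of 2 arrays, open points were not well above background, and the dotted line is the floor. In the miR-148a-3p panels the NASH arrays lie below the control arrays of their week in liver and above them in serum.

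In serum, miR-148a-3p moved the other way and rose on the NASH diet. At week 1 its relative signal was 0.671 and 0.653 on NASH arrays, against 0.307 and 0.432 on control arrays. At week 2 it was 0.785 and 0.648 in NASH serum, against 0.150 and 0.224 in control serum. At week 6 it was 0.359 and 0.640 in NASH serum, against 0.134 and 0.0955 in control serum. The diets did not overlap in any week. The lowest NASH array, replicate 1 of week 6 (the array whose label has no number), was below the highest control array, replicate 2 of week 1.

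Over the 3 weeks the serum level was 3.11-fold that of control (log2 difference 1.64, SE 0.20, 95% interval 1.15 to 2.12, limma adjusted p = 0.0039) and above the control mean of its week in 6 of 6 NASH arrays. Of the 426 serum miRNAs tested, 18.8% passed in the mean over weeks and 4.93% passed as higher. By week the log2 differences were 0.86 (limma adjusted p = 0.45), 1.96 (limma adjusted p = 0.043) and 2.08 (limma adjusted p = 0.016), and 1.41%, 2.58% and 12% of the miRNAs passed in those weeks. The weekly effects did not pass as unequal (limma adjusted p = 0.74), and 0.469% of miRNAs did.

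Deviations of same-numbered NASH and control serum arrays from their group means correlated at 0.55 in week 1, but only at 0.16 and 0.22 in weeks 2 and 6. The fit was repeated with the replicate number as a block, which leaves out the unnumbered NASH array of week 6. The blocked mean difference was 1.86 and no longer passed (limma adjusted p = 0.060). The blocked values were 1.96 at week 2 and 2.74 at week 6 (limma adjusted p = 0.18 and 0.13). With slide row as the block and all 12 arrays kept, the mean passed at 1.64 (limma adjusted p = 0.0088), week 6 passed (limma adjusted p = 0.031) and week 2 did not (limma adjusted p = 0.064).

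The other 3p members were dim in serum and were not called in the fit by tissue. On the scale common to both tissues, given below, both passed as lower in serum. miR-148b-3p was well above background on 5 of 6 NASH arrays and 3 of 6 control arrays. Its relative signal ran from 0.0345 to 0.0603 with a median of 0.0538 in NASH serum, against 0.0413 to 0.0867 with a median of 0.0569 in control serum. The ranges over the 3 weeks overlapped, but each of the 6 NASH arrays was below the control mean of its week. At week 6 the diets did not overlap, with 0.0345 and 0.0384 in NASH serum, against 0.0481 and 0.0413 in control serum, and of these 4 arrays only 1, from NASH, was well above background. The mean difference was -0.28 (95% interval -0.62 to 0.056, limma adjusted p = 0.25). Its sign turned when the arrays were not scaled (0.21), were scaled over all probes (0.15), by the median (0.0097) or by quantiles (0.0087), and under normexp it was -0.56 and passed (limma adjusted p = 7.95e-04).

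miR-152-3p was well above background on 4 of 6 arrays of each diet in serum. Its relative signal ran from 0.0224 to 0.112 with a median of 0.0563 in NASH serum, against 0.0455 to 0.163 with a median of 0.0777 in control serum. The ranges over the 3 weeks overlapped, but each of the 6 NASH arrays was below the control mean of its week. The diets did not overlap at week 2 (0.0620 and 0.0505 in NASH serum, against 0.0760 and 0.0684 in control serum) or at week 6 (0.0305 and 0.0224 in NASH serum, both below the floor of 0.0381, against 0.0795 and 0.0455 in control serum). The mean difference was -0.49 (95% interval -0.99 to 0.014, limma adjusted p = 0.19), and under normexp it was -0.63 and passed (limma adjusted p = 3.72e-04). At week 6, 0 of 2 NASH arrays and 1 of 2 control arrays measured it well above background. With both NASH arrays set to the floor, the fitted week 6 difference was -0.66 and did not pass (limma adjusted p = 0.33). Its size depends on that floor and on a control array not well above background, so no fold is given.

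Under normexp nearly the whole serum table moved down, with 16 miRNAs called higher and 346 lower against 21 and 59 here, and the median of the miRNAs detected on all serum arrays went to -0.44, against -0.28 here. That median was 0.44 without scaling and 0.35 with scaling over all probes. The mean serum difference of miR-148a-3p passed under each scaling, while its calls at weeks 2 and 6 were lost with no filter on detection (limma adjusted p = 0.29 and 0.11).

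**Figure D2:**
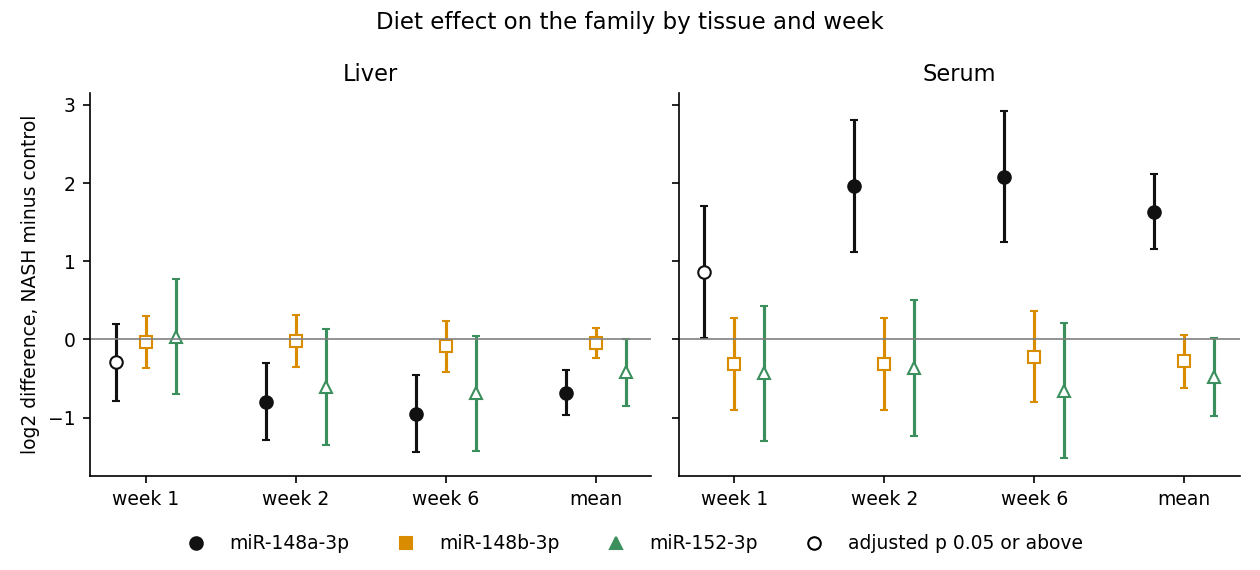
Log2 difference, NASH minus control, with 95% intervals, for the 3 detected members in liver (left) and serum (right), by week and as the mean over weeks. Filled symbols passed at an adjusted p under 0.05; these are miR-148a-3p at week 2, at week 6 and in the mean, downward in liver and upward in serum.

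Log2 ratios of 2 miRNAs on the same array do not depend on scaling, and they were used to ask whether members changed unequally. The miR-148a-3p over miR-148b-3p ratio in liver was 5.21 and 5.17 at week 1 on NASH arrays, against 5.48 and 5.42 on control arrays. At week 2 it was 4.57 and 4.64 in NASH livers, against 5.39 and 5.36 in control livers, and at week 6 it was 4.24 and 4.57 in NASH livers, against 5.22 and 5.32 in control livers. Every NASH array was below every control array. The ratio was lower by 0.63 in NASH livers (log2 difference -0.63, exact two-sided permutation p = 0.00926, adjusted over the 5 ratios tested 0.023). The value of a ratio holds both probes' own response, so only its change between arrays can be read.

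The other liver ratios among members changed less. miR-148a-3p over miR-152-3p averaged 4.10 ± 0.20 in NASH livers and 4.36 ± 0.10 in control livers (SD, n = 6 each; difference -0.26, exact permutation p = 0.028, adjusted 0.037). miR-148b-3p over miR-152-3p averaged -0.63 ± 0.47 in NASH livers and -1.01 ± 0.070 in control livers (SD, n = 6 each; difference 0.37, exact permutation p = 0.037, adjusted 0.037). Ranges of the diets overlapped in both. Both calls were lost when most single arrays were left out, while the miR-148a-3p over miR-148b-3p call held in 12 of 12 such fits. Ratios among members were not tested in serum, because miR-148b-3p and miR-152-3p were not well above background on all 12 arrays.

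miR-122-5p served as the comparison within hepatocyte miRNAs. It fell by 0.98 in liver (limma adjusted p = 2.87e-05), and miR-148a-3p over miR-122-5p averaged -4.50 ± 0.19 in NASH livers and -4.81 ± 0.21 in control livers (SD, n = 6 each; difference 0.30, exact permutation p = 0.037, adjusted 0.037). The diets overlapped, and the call was lost without any of 9 of the 12 arrays. In serum miR-122-5p rose by 3.82 (limma adjusted p = 0.0060). miR-148a-3p over miR-122-5p ran from -5.67 to -4.52 in NASH serum and from -3.93 to -1.10 in control serum, without overlap (difference -2.19, exact permutation p = 0.00926, adjusted 0.023). Relative to miR-122-5p, miR-148a-3p thus lost less in NASH liver and gained less in NASH serum.

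**Figure D3:**
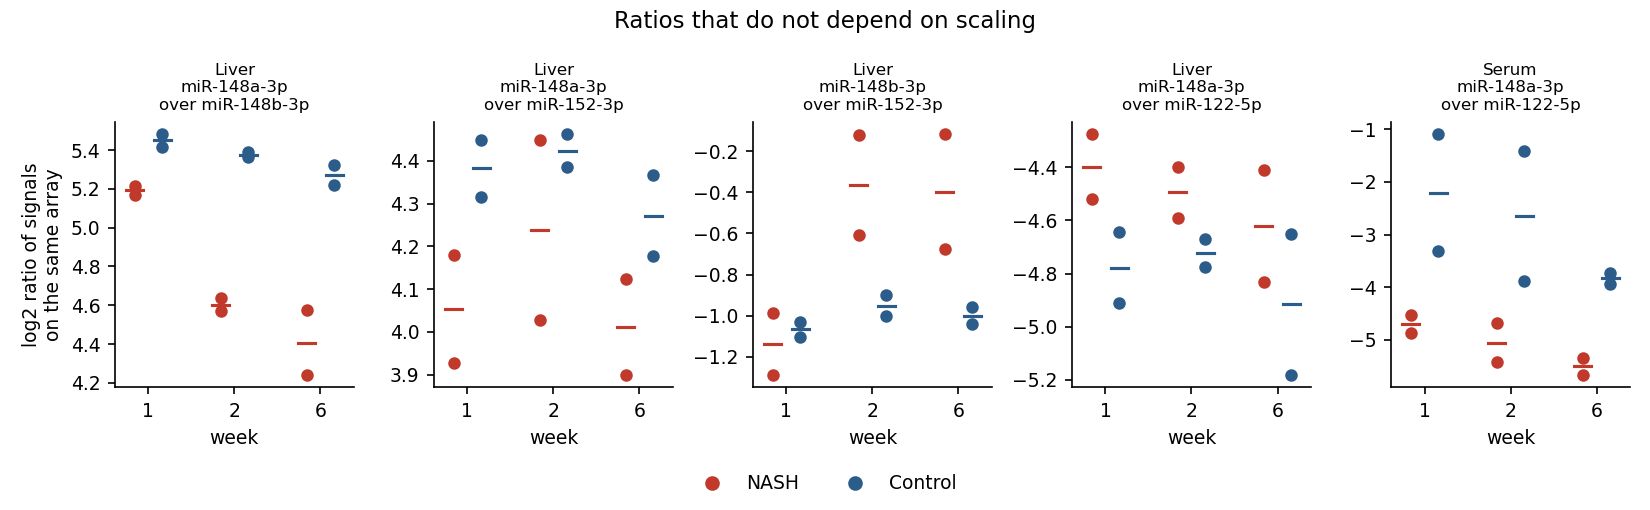
Log2 ratio of 2 miRNAs on the same array by week, NASH in red and control in blue, for the 5 ratios tested (4 in liver, 1 in serum); points are arrays and bars are means of 2, and each panel has its own scale. In the miR-148a-3p over miR-148b-3p panel all NASH arrays lie below all control arrays, as they do for miR-148a-3p over miR-122-5p in serum.

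The tissues were compared in 1 fit over the 24 arrays for the 293 miRNAs tested in both, scaled over the 163 probes that cleared background on each of them. The diet effect on miR-148a-3p, serum minus liver, was 1.95 (SE 0.20, 95% interval 1.52 to 2.39, limma adjusted p = 3.85e-06), made up of 1.61 in serum and -0.34 in liver. The liver value did not pass on this scale (limma adjusted p = 0.094). Of the 293 miRNAs, 46.8% passed for a difference between tissues and 7.17% passed as higher in serum, and the median difference was -0.44. The value stayed above 0 and passed under every scaling, signal and left-out array tried, 1.80 to 2.08 over the left-out arrays.

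For miR-148b-3p the same difference was -0.62 (SE 0.15, limma adjusted p = 0.0037), close to that median. It was made up of -0.33 in serum (limma adjusted p = 0.018) and 0.29 in liver (limma adjusted p = 0.047), where the fit by tissue gave -0.05; on this scale 48.1% of miRNAs passed in serum and 29.4% in liver. With each tissue scaled over its own probes it was -0.23 (limma adjusted p = 0.29, median of all miRNAs -0.26), and over all probes it turned to 0.19. For miR-152-3p the difference was -0.56 (SE 0.27, limma adjusted p = 0.10). It was made up of -0.64 in serum, which passed on this scale (limma adjusted p = 0.013), and -0.08 in liver, which did not. The fit by tissue gave -0.49 in serum, which did not pass.

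Levels in serum relative to liver were also lower for the 3 members, on this common scale. The serum minus liver difference of miR-148a-3p was -2.02 in NASH mice and -3.97 in control mice (limma adjusted p = 8.14e-09 and 3.74e-12). That is, liver stood 4.04-fold above serum in NASH mice and 15.7-fold above it in control mice. miR-148b-3p gave -0.93 in NASH mice and -0.31 in control mice, and miR-152-3p gave -1.44 in NASH mice and -0.88 in control mice, and all 4 values passed (limma adjusted p of 1.20e-06, 0.012, 7.18e-06 and 6.56e-04, in that order). The serum side of these 4 values rests in part on arrays where miR-148b-3p or miR-152-3p was not well above background, as counted earlier. The median over 293 miRNAs was 0.057 in NASH mice and 0.55 in control mice, with 68.6% and 83.6% of miRNAs passing. On the 1 slide that held both tissues, as serum of week 6 and liver of week 1, the miR-148a-3p difference was -2.74 in NASH mice and -4.81 in control mice, both past the threshold, as were 64.2% and 66.6% of miRNAs. No value is given there for miR-148b-3p and miR-152-3p, which most week 6 serum arrays did not measure well above background. Different amounts of RNA were labelled, 2.5 ng from serum and 100 ng from liver, so these are places among the bright miRNAs of each tissue and not amounts.

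**Figure D4:**
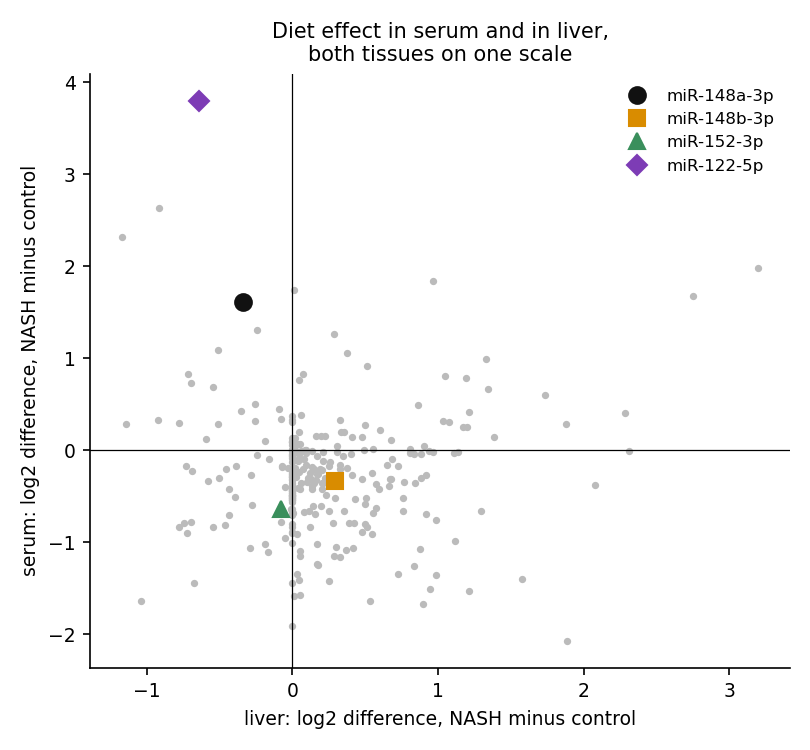
Log2 difference, NASH minus control, in serum (vertical axis) against liver (horizontal axis) for the 293 miRNAs tested in both tissues on a common scale; each grey point is a miRNA. miR-148a-3p lies at -0.34 in liver and 1.61 in serum, below 0 in liver and above 0 in serum as miR-122-5p does, and miR-148b-3p and miR-152-3p lie below 0 in serum.

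Differences between weeks could be tested only where the weeks shared a slide. In liver, week 6 minus week 2 was -0.47, -0.27 and -0.24 in NASH mice for miR-148a-3p, miR-148b-3p and miR-152-3p, and -0.31, -0.20 and -0.16 in control mice. In serum, week 2 minus week 1 was 0.11, 0.04 and -0.72 in NASH mice and -0.99, 0.04 and -0.79 in control mice. No member passed in any of them (smallest limma adjusted p = 0.36 in liver and 0.48 in serum). Without scaling, the miR-148a-3p value of -0.99 between the control serum weeks was -2.40 and passed (limma adjusted p = 0.041), and with normexp the miR-148b-3p value there was 0.71 and passed (limma adjusted p = 0.0082). Of all miRNAs tested, 3.35% passed between the NASH liver weeks and 0.515% between the control liver weeks, 0% between the NASH serum weeks and 1.17% between the control serum weeks.

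The liver profile of miR-148a-3p over the 12 arrays was closest to those of miR-30b-5p, miR-30e-5p and let-7f-5p, with root mean square differences of 0.086, 0.12 and 0.13 after each was centred on its mean, among 170 miRNAs well above background on all liver arrays. Their liver diet differences were -0.80, -0.78 and -0.63, which is a description, since they were picked for likeness over the same arrays. miR-152-3p lay closest to miR-20a-5p, miR-126a-3p, which is typical of endothelium, and miR-20b-5p (0.088, 0.10 and 0.11). miR-148b-3p lay closest to miR-100-5p, miR-361-5p and miR-99a-5p (0.12, 0.12 and 0.13). In serum the neighbours of miR-148a-3p were much farther off, miR-22-3p at 0.63, miR-130a-3p at 0.74 and miR-3960 at 0.75 among 154 miRNAs.

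Most other hepatocyte miRNAs of the list moved in the same direction as miR-148a-3p in each tissue, though not all passed. Of the 8 list members tested in liver, 7 passed as lower, 0 as higher and 1 in neither direction, with a median difference of -1.01 against 0 over all liver miRNAs tested, of which 20.4% passed as lower. The largest falls were those of miR-122-3p (-1.51, limma adjusted p = 3.56e-04) and miR-192-5p (-1.26, limma adjusted p = 4.40e-04). The one that did not pass, miR-802-5p, had a difference of 0.35, opposite to miR-148a-3p (limma adjusted p = 0.45). In serum 4 of 7 rose and 3 did not pass, with a median of 0.82 against -0.11 over all serum miRNAs tested, of which 4.93% passed as higher. miR-122-5p and miR-192-5p (2.65, limma adjusted p = 0.0011) rose most. Among those that did not pass, miR-455-3p was at -0.35, opposite to miR-148a-3p (limma adjusted p = 0.48), and was detected on 1 NASH array and 4 control arrays. Of those that rose, miR-122-3p was detected on 6 NASH and 0 control arrays, and miR-193a-3p on 6 NASH arrays and 1 control array. Both entered the test only through the NASH arrays, so the count depends in part on the filter on detection.

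Markers of other cell types moved with the diet as well, and their part in the family's differences was not tested. For comparison, of all 388 liver miRNAs tested, 85 passed as higher and 79 (20.4%) as lower. Immune cell miRNAs summed to a relative signal of 3.16 to 4.68 on NASH liver arrays, against 1.32 to 1.88 on control liver arrays, with 5 of 7 higher and none lower. miR-342-3p, abundant in lymphocytes, rose by 2.41 and the myeloid miR-223-3p by 1.73. Among those called higher, miR-155-5p was detected on 6 NASH arrays but 1 control array, and entered the test only through the NASH arrays. miR-150-5p was well above background on 6 NASH arrays and 1 control array. Stellate cell and fibroblast miRNAs summed to 1.27 to 2.03 in NASH livers, against 0.833 to 1.14 in control livers, with 3 of 6 higher, led by miR-214-3p (1.57) and miR-199b-5p (1.23), and miR-145a-5p at the floor on all arrays. Red cell miRNAs summed to 1.19 to 4.29 in NASH livers, against 3.74 to 6.72 in control livers, with 3 of 4 lower, led by miR-144-3p (-1.55) and miR-451a (-1.09). The endothelial pair miR-126a-3p and miR-126a-5p fell by 0.53 and 0.94, with a sum of 3.01 to 7.06 in NASH livers, against 5.89 to 7.61 in control livers. The platelet sum was 4.57 to 9.33 in NASH livers, against 6.79 to 8.55 in control livers, with miR-191-5p at the floor on all arrays, and of 3 platelet miRNAs tested 1 rose, miR-223-3p, and 1 fell, miR-126a-3p.

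Of all 426 serum miRNAs tested, 21 (4.93%) passed as higher and 59 as lower. In serum the red cell sum was 8.25 to 72.0 in NASH and 30.9 to 67.3 in control arrays, with miR-144-5p at the floor on all arrays and 2 of 3 tested lower, miR-486a-5p (-1.56) and miR-144-3p (-1.33). An index of red cell lysis, the log2 ratio of miR-451a over miR-23a-3p, differed by -0.44 (exact permutation p = 0.42), and by 0.70, 0.52 and -2.54 at weeks 1, 2 and 6. Immune cell miRNAs summed to 6.45 to 21.7 in NASH serum, against 6.01 to 13.0 in control serum, with 1 of 7 higher (miR-342-3p, 1.70) and 3 lower, led by miR-142a-3p (-1.34) and miR-150-5p (-1.32). Also counted as lower was miR-155-5p (-0.19), well above background on 1 NASH array and 0 control arrays, so its call rests on values near the floor. Stellate cell and fibroblast miRNAs summed to 0.242 to 0.764 in NASH serum, against 0.921 to 1.72 in control serum, with 3 of 6 lower, led by miR-214-3p (-2.05) and miR-199a-5p (-1.29). Neither endothelial miRNA passed, with sums of 0.202 to 1.01 in NASH serum, against 0.545 to 2.40 in control serum. Of 3 platelet miRNAs 1 was lower, miR-151-5p (-1.01), with sums of 3.18 to 7.07 in NASH serum, against 4.68 to 10.7 in control serum; miR-142a-5p of the immune list and miR-191-5p of the platelet list were at the floor on all serum arrays.

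The last group was a list of other miRNAs known to act on the LDL receptor, ABCA1 or sterol-sensing pathways, as miR-148a-3p does. Of the 11 tested in liver, 3 passed as higher, 5 as lower and 3 in neither direction, with a median of -0.05; 42.3% of all liver miRNAs passed in either direction and 20.4% as lower. miR-223-3p and miR-27a-3p (1.04, limma adjusted p = 8.66e-04) rose most, and miR-144-3p and miR-122-5p fell most. miR-33-5p, which is made from an intron of Srebf2 and represses ABCA1, was among those that fell (-0.75, limma adjusted p = 7.04e-04), well above background on 4 of 6 NASH and 6 of 6 control arrays. In serum 1 of 9 tested rose, miR-122-5p, 3 fell and 5 did not pass, with a median of -0.27, where 18.8% of all serum miRNAs passed in either direction; miR-128-3p (-1.55, limma adjusted p = 0.0051) and miR-144-3p fell most. The list did not move one way in either tissue, and the 3 that rose in liver included miR-223-3p, which the immune list also holds.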

How the data were processed

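Per the file headers, the deposited files hold spot intensity from 1-colour (Cy3) Agilent miRNA arrays. Agilent Feature Extraction 11.5 is named in the submitters' processing notes. The authors' processed signal is a background-subtracted intensity with no normalization between arrays. Control spots and outlier spots were left out here and the spots of a probe averaged. Signals were then expressed relative to the array's own 75th percentile, taken over probes that cleared background throughout the fit (299 in liver, 253 in serum, 163 in both). A floor was set before log2, the arrays' median 5th percentile among scaled signals above background. The brightest probe stood for a miRNA. miRNAs detected on at least 2 arrays (388 in liver, 426 in serum) were fitted by diet and week with limma 3.58.1 in R 4.3.3 (lmFit, eBayes, Benjamini-Hochberg). Ratios and array quality were compared by exact two-sided permutation of diet within weeks (216 arrangements, smallest p 0.00926). Alternatives changed the scaling, background correction (normexp on median spot signal), signal column, probe, floor, filter, blocks and variance model, or dropped arrays one at a time. Arrays limit the precision by their number.

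The members and lists were chosen with earlier results of these data known. Named besides the members were the 3 closest profiles per member and tissue, up to 2 called miRNAs per direction of each list, and miR-122-5p, miR-451a, miR-23a-3p and miR-223-3p. miR-33-5p, miR-802-5p and miR-455-3p were named after their values were seen. One serum label, of a week 6 NASH array, carries no replicate number. As a check of pairing, the deviations from group means of NASH and control arrays with the same number were correlated, giving 0.55, 0.16 and 0.22 for serum at weeks 1, 2 and 6, and -0.57, 0.42 and 0.44 for liver. With every serum value above 0.1, the serum numbers were treated as pairs, from the data and not from the labels. The liver values of weeks 2 and 6 were higher than the serum values of those weeks, so the check does not settle a pairing in either tissue. Replicate number also coincided with slide row, so pairing and row cannot be told apart. The unnumbered array was counted as number 1 for this check and is called replicate 1 in the text, while the fit with the replicate block left it out.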

Additional observations from a re-analysis of the deposited data

Results flagged for a closer look

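The diet effect on miR-148a-3p differed between serum and liver by 1.95 on the log2 scale (serum minus liver, limma adjusted p = 3.85e-06), with NASH arrays above the control mean of their week in 6 of 6 cases in serum and below it in 6 of 6 in liver. For miR-148b-3p the difference between the tissues was -0.62 (limma adjusted p = 0.0037), beside a median of -0.44 over the 293 miRNAs, and it turned with the scaling.

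Among the 6 NASH serum arrays, 1 value of miR-148a-3p stood apart, that of replicate 1 at week 6, with a log2 relative signal of -1.48. It is the array whose label gives no replicate number. In all, 8 groups of 6 arrays were examined in this way. Chance singles out about 1 in 20 groups when all 6 values come from 1 population. Each group here pools weeks 1, 2 and 6, and serum of week 6 was on another slide than serum of weeks 1 and 2. That rate therefore need not hold, and week or slide was not separated from the flag.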

How the results depend on the processing

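The mean diet effect of miR-148a-3p kept its sign under every alternative in both tissues. In liver it ranged from -0.77 to -0.59 over the left-out arrays and passed in 12 of 12; it fell short with scaling over all probes (-0.66), no scaling (-0.25) and quantile normalization (-0.19). In serum it ranged from 1.55 to 1.79 and passed in 12 of 12, and fell short with the replicate block (1.86, limma adjusted p = 0.060), a fit with 1 array fewer. In liver no pairing was assumed, since the correlations of same-numbered arrays differed in sign between weeks (-0.57, 0.42 and 0.44). With the replicate block miR-148a-3p still passed in liver (-0.68, limma adjusted p = 0.0042). The block changed no other member's call there, and calls over all liver miRNAs at week 1 went to 12, against 45. The causes of these and the following shifts were not tested.

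Weekly calls of miR-148a-3p were less stable. At week 2 in liver the call was lost without NASH week 1 replicate 2 (-0.80), NASH week 2 replicate 1 (-0.67), control week 2 replicate 1 (-0.87) or control week 2 replicate 2 (-0.77), and with the dimmer probe (-0.75, chosen after seeing the data), scaling over all probes (-1.14), no scaling (-0.50), quantiles (-0.055) and no filter (-0.80); at week 6 it was lost without NASH week 6 replicate 1 (-0.68) or control week 6 replicate 2 (-0.77), and with scaling over all probes (-0.74), no scaling (-0.47) and no filter (-0.95). In serum at week 2 it was kept only without replicate 2 of the week 2 control or either week 6 NASH array (1.66 to 2.33 over all 12), and at week 6 it was lost without NASH week 6 replicate 2 (1.71) or control week 6 replicate 1 (2.44). No filter (1.96 and 2.08) and the replicate block (1.96 and 2.74) ended both serum calls, and slide row as a block that of week 2 (1.96).

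In liver, miR-148b-3p turned to 0.38 without scaling, and miR-152-3p to 0.0072. miR-152-3p passed under quantile normalization (-0.35), normexp (-0.36) and total signal (-0.48), and ranged from -0.55 to -0.29 over the left-out arrays, passing without NASH week 6 replicate 2. Its weekly values passed at week 2 with quantiles (-0.60, limma adjusted p = 0.026) and at week 6 with normexp (-0.55, limma adjusted p = 0.046) or without NASH week 6 replicate 2 (-1.08, limma adjusted p = 0.046). In serum, miR-148b-3p turned with scaling over all probes (0.15), no scaling (0.21), median scaling (0.0097) and quantiles (0.0087), and passed with normexp (-0.56). miR-152-3p turned without scaling (0.082) and passed with normexp (-0.63). At weeks 2 and 6 normexp also gave serum calls of miR-148b-3p (-0.68 and -0.71, limma adjusted p = 0.012 and 0.010) and miR-152-3p (-0.69 and -0.86, limma adjusted p = 0.011 and 0.0050).

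Liver miRNAs called in the mean numbered 164 (85 higher, 79 lower), and 100 with scaling over all probes (63 and 37); without scaling the split was 117 to 9, with normexp 32 to 172, where the median of the miRNAs detected on all liver arrays was -0.25, against -0.058 as reported. Serum calls numbered 80 (21 higher, 59 lower), against 39 with scaling over all probes (32 and 7), 44 without scaling (37 and 7), 362 with normexp (16 and 346), 35 with no filter and 30 with the replicate block, and they ranged from 48 to 118 over the left-out arrays, lowest without NASH week 6 replicate 2, NASH week 2 replicate 1 (49) or NASH week 1 replicate 1 (51). With median scaling the serum split was 36 to 39, with quantiles 53 to 45 and with total signal 38 to 48; in liver the filter to all arrays gave 55 to 72. Weekly serum counts were unstable. The 6 of week 1 became 0 to 14, moved by control week 1 replicates 1 (14) and 2 (3), NASH week 1 replicate 2 (2), control week 2 replicate 2 (1) and both control week 6 arrays (0). The 11 of week 2 became 0 to 55, moved by both NASH week 2 arrays (0), both control week 1 arrays (1), NASH week 6 replicate 2 (7) and control week 2 replicates 1 (55) and 2 (23). The 51 of week 6 became 2 to 70, moved by NASH week 6 replicate 2 (2), control week 6 replicate 1 (19) and both control week 1 arrays (32). Other settings also moved weekly counts, to 7 with normexp and 69 with total signal in liver at week 1 (45 as reported), 50 with normexp or scaling over all probes at week 2 (119) and 32 with scaling over all probes at week 6 (110). In serum they went to 0 with no filter and 15 with normexp at week 1, 0 and 330 at week 2, and 3 and 335 at week 6.

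Between the tissues, the miR-148b-3p diet difference was 0.19 with scaling over all probes, -0.17 without scaling, -0.20 with total signal and -0.23 with each tissue scaled on its own, an alternative chosen after seeing the data; only the -0.62 and its left-out arrays passed. miR-152-3p turned to 0.40 with scaling over all probes and 0.075 without, and ranged from -0.70 to -0.41, passing without control serum week 1 replicate 1, week 2 replicate 2 or week 6 replicate 2. Slide as a random block could not be fitted, since slide is set by tissue and week.

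Weekly values of the members that were not called changed sign as follows. With scaling over all probes, miR-148b-3p in liver was 0.15 at week 1 and 0.13 at week 6, and in serum 0.55 at week 2 and 0.0026 at week 6; miR-152-3p in serum was 0.35 at week 2, and the differences between weeks were 0.023 for miR-152-3p in NASH liver and -0.47 for miR-148b-3p in control serum. Without scaling, miR-148a-3p in liver was 0.22 at week 1, and miR-148b-3p in liver 0.47, 0.27 and 0.39 at weeks 1, 2 and 6. In serum without scaling, miR-148b-3p was 0.63 at week 2 and 0.086 at week 6, and miR-152-3p 0.45 at week 2. Between weeks without scaling, miR-152-3p in NASH liver was 0.0079, miR-148a-3p and miR-148b-3p in NASH serum were -0.47 and -0.54, and miR-148b-3p in control serum was -1.25. With median scaling, miR-152-3p was -0.027 in liver at week 1 and 0.0037 in serum at week 2, and miR-148b-3p in serum was 0.056 at week 2, 0.025 at week 6 and -0.058 between control weeks. With quantiles the same 5 were -0.039, 0.040, 0.041, 0.032 and -0.044. With normexp, miR-152-3p was -0.075 in liver at week 1 and, between weeks in serum, 0.026 in NASH and 0.38 in control. With total signal, miR-152-3p was -0.15 in liver at week 1 and 0.19 in serum at week 2, and miR-148b-3p 0.083 in liver at week 2.

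Over the left-out arrays, weekly signs changed for miR-148b-3p in liver (-0.20 to 0.091 at week 1, -0.11 to 0.065 at week 2, -0.21 to 0.045 at week 6) and serum (-0.65 to 0.023, -0.56 to 0.011 and -0.30 to 0.018), and for miR-152-3p in liver at week 1 (-0.17 to 0.20). They also changed between weeks for miR-152-3p in NASH liver (-0.62 to 0.15), miR-148a-3p and miR-148b-3p in NASH serum (-0.032 to 0.25 and -0.049 to 0.13) and miR-148b-3p in control serum (-0.30 to 0.38).

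Among the ratios, miR-148b-3p over miR-152-3p fell short with the mean of the probes (0.38) and with normexp (0.17). Leaving out an array leaves fewer arrangements. The miR-148a-3p over miR-152-3p difference then ranged from -0.33 to -0.19 and passed without 4 arrays (NASH week 1 replicate 2, NASH week 2 replicate 1, NASH week 6 replicate 1, control week 6 replicate 1). miR-148b-3p over miR-152-3p ranged from 0.28 to 0.47 and passed without NASH week 1 replicate 1, and liver miR-148a-3p over miR-122-5p ranged from 0.21 to 0.39 and passed without NASH week 2 replicate 1, NASH week 6 replicate 1 or control week 6 replicate 2. The dimmer probe of miR-148b-3p was not well above background on any array and gives no value. Signal over background limits the serum values of miR-148b-3p and miR-152-3p, and miR-148a-5p could not be measured. It also limits miR-148a-3p in week 6 control serum, where its dimmer probe was not well above background, so that probe gives no serum value.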
